A study of Mus musculus with 14 samples.

Results

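The genes described here are the extracellular and membrane layer of Wnt signalling in the mouse carotid artery: ligands, receptors, co-receptors and secreted inhibitors, with a few intracellular read-outs. They were taken from the deposited gene table by name, as every gene called Wnt, Fzd, Sfrp, Dkk, Lrp5, Lrp6, Ror, Rspo or Lgr4 to Lgr6 with its number, plus Wif1, Frzb, Axin2, Lef1, Tcf7, Nkd1 and Nkd2. The rule found 55 of the 35275 genes in the table and used no measured value. They comprise 19 Wnt ligands, 4 R-spondins, 10 Frizzled receptors, 4 co-receptors, 3 Lgr receptors, 10 secreted inhibitors and 5 feedback or TCF/LEF genes.

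The libraries came from the right and left carotid arteries of C57BL/6 mice, 10 weeks old, fed standard chow. The lumen was flushed with 150 µL of Qiazol, a phenol lysis reagent, which gave an endothelial-enriched RNA fraction, and RNA was also taken from the left-over artery, that is, media and adventitia. The flushed fraction had 4 libraries of Poldip2-EC-/- mice (genotype Poldip2 EC knockout) and 4 of Poldip2-floxed littermate controls. The left-over fraction had 4 libraries labelled Poldip2-SMC-/- (genotype Poldip2 SMC Knockout) and 2 labelled Poldip2-floxed littermate controls. The labels name no Cre line or promoter for the deletions. They call the libraries repeats and do not say whether each is a separate mouse, so p-values measure the spread between these libraries. Nor do they say whether a flushed and a left-over library share an artery.

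Depth was 15019891 to 23287155 counts a library. The labelled fractions matched their markers, since the 10 endothelial markers summed to 3840 to 4540 FPKM (fragments scaled to gene length and library total) in flushed and 64.7 to 284 FPKM in left-over libraries. The flushed RNA still held transcripts of the wall lists. The 10 adventitial fibroblast markers summed to 1490 to 2950 FPKM in flushed and 8750 to 11800 FPKM in left-over libraries, but most of the flushed sum was Ly6a, at 987 to 1860 FPKM in flushed and 1280 to 1640 FPKM in left-over libraries. The other 9 summed to 187 to 1090 FPKM in flushed and 7200 to 10200 FPKM in left-over libraries. Poldip2 itself had 17.8, 12.1, 12.5 and 10.5 FPKM in EC knockout libraries and 22.5, 21.3, 23.5 and 29.1 FPKM in EC controls. In the left-over fraction it went against the labels, with 26.8, 25.2, 33.5 and 34.5 FPKM in libraries labelled knockout and 13.4 and 11.4 FPKM in those labelled control. The authors' deposited group mean for smooth muscle control was, in 100% of genes at 1 FPKM or more, that of the 4 libraries with the knockout label. Left-over groups are therefore named by their labels, and every direction drawn between them would turn round if the labels were exchanged.

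Wnt proteins are secreted, lipid-modified ligands that bind Frizzled receptors. With Lrp5 or Lrp6 as co-receptor they stabilise β-catenin, which acts on target genes through TCF/LEF factors, while Ror1 and Ror2 serve as receptors for signalling that does not need β-catenin. R-spondins act through Lgr4, Lgr5 and Lgr6 and keep Frizzled receptors at the cell surface, whereas Sfrp proteins, Frzb and Wif1 bind Wnts outside the cell and several Dkk proteins block the co-receptors. In endothelium, Fzd4 with Lrp5 and the tetraspanin Tspan12 is known as the receptor complex for norrin, the product of Ndp, in the vessels of the retina.

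The 250 promoter bases before the start are printed for 5 genes, to show the sequence in which motifs were searched. RefSeq promoters of build GRCm38.p6 were matched by symbol for 38 of the 55 genes. Dkk2 and Fzd4 are the genes of highest level with an entry among those higher in every flushed than in every left-over library, and Sfrp2 and Wnt2 those among the ones lower in every flushed library. Wnt11 is added as the only one of the 38 with a TCF/LEF match. Capitals mark matches on either strand to the TCF/LEF motif CTTTGAT, the GC box GGGCGG bound by Sp and KLF factors, and the TATA box TATAAA. In Wnt11 the TCF/LEF match, on the reverse strand, directly follows a GC box. The positions are chr3:132085042-132085291 (+ strand) for Dkk2, chr7:89404116-89404365 (+) for Fzd4, chr3:83766071-83766320 (+) for Sfrp2, chr6:18030446-18030695 (− strand) for Wnt2 and chr7:98834862-98835111 (+) for Wnt11.
Dkk2: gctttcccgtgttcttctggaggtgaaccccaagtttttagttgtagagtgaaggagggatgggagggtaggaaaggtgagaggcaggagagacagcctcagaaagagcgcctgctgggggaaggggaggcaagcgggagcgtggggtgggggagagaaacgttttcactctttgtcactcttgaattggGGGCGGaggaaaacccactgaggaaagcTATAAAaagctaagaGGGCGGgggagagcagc
Fzd4: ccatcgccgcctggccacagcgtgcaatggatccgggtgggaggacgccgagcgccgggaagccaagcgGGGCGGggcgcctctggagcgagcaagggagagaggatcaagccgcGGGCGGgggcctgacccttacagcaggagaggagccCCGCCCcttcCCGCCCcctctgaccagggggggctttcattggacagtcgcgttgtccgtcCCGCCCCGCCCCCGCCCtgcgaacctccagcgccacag
Sfrp2: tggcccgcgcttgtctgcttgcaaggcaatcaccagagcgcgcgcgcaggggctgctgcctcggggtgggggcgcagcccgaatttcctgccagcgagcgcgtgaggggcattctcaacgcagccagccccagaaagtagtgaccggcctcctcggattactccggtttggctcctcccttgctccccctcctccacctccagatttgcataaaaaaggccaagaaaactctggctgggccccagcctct
Wnt2: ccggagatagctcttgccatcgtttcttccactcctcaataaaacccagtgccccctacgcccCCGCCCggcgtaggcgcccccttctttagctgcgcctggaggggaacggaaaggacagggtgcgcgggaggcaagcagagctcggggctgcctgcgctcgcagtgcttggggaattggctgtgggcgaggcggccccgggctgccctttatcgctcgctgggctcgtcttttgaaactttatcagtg
Wnt11: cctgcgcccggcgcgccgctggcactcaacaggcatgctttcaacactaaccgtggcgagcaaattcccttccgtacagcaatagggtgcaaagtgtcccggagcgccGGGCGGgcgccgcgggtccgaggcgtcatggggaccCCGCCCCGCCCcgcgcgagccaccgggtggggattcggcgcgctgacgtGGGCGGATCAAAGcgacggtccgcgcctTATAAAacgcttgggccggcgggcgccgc

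The TCF/LEF letters were found in 1 of the 38 promoters, 51 bases before the start of Wnt11, against 3.21% of all 32851 promoters of the same length. GC boxes were in 28 of the 38, including 7 of 8 genes higher and 16 of 24 genes lower in the flushed fraction, against 32.7% of all promoters. TATAAA was in 5 of the 38 and in 12.4% of all. The ETS letters CCGGAA were in 1 (12% of all), and the SOX letters ACAATGG in 0 (3.02% of all). The median GC content was 73.0% in the 8 promoters of genes higher in the flushed fraction and 66.6% in the 24 of genes lower there, against 52.4% over all promoters. No entry was matched for Lrp6, Wnt10a, Fzd3, Lrp5, Rspo3, Wnt8a, Rspo2, Dkk4, Fzd8, Dkk3, Wnt7b, Fzd2, Lgr5, Wnt5a, Fzd6, Sfrp4 and Sfrp1.

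**Figure D1:**
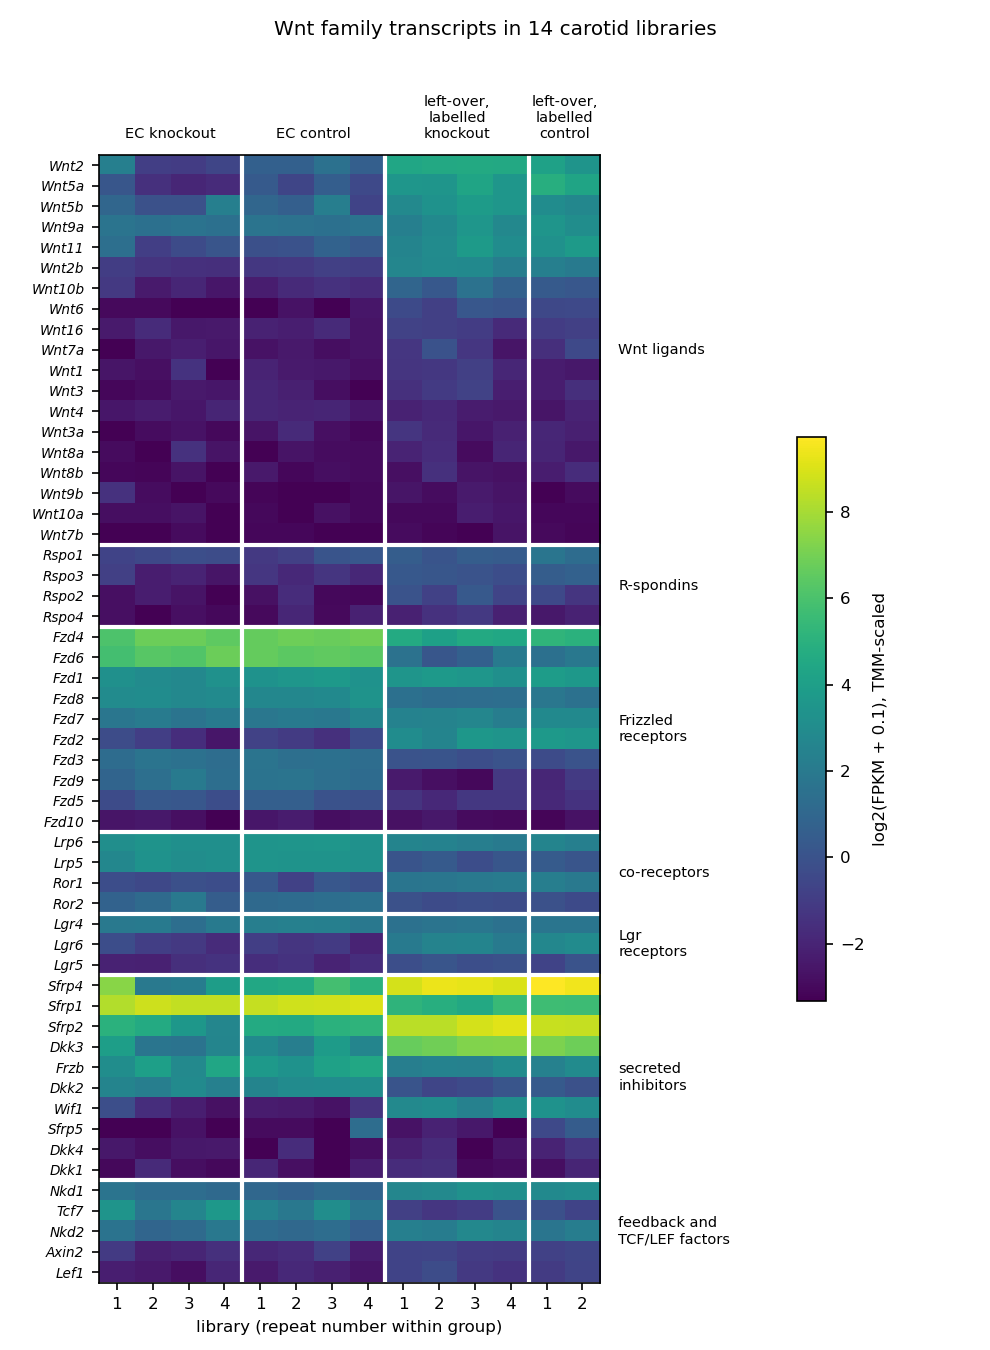
Level of all 55 genes (vertical, grouped by role) in the 14 libraries (horizontal, numbered within group) as log2(FPKM + 0.1), from dark (low) to yellow (high). The 8 flushed libraries share Sfrp1, Fzd4 and Fzd6 as bright bands and the 6 left-over libraries Sfrp4, Sfrp2 and Dkk3.

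Secreted inhibitors were the most abundant group in both fractions. Their summed level was 411 to 610 FPKM in flushed libraries and 965 to 1470 FPKM in left-over libraries. The flushed sum was mostly 1 gene, Sfrp1, with a median share of 84.7%, while the left-over sum was shared by Sfrp4 (median 52.2%) and Sfrp2 (32.6%), with Sfrp1 at 3.47%. Frizzled receptors came next in flushed RNA, at 149 to 235 FPKM in flushed and 46.5 to 79.3 FPKM in left-over libraries. Ligands stood far below the inhibitors, at 5.69 to 14.9 FPKM in flushed libraries and 60.9 to 97.3 FPKM in left-over libraries over all 19 genes together. R-spondins were the lowest group, at 0.735 to 1.39 FPKM in flushed and 2.63 to 5.28 FPKM in left-over libraries. In each of these sums except that of the Frizzled receptors the left-over libraries lay above the flushed ones, and the groups of libraries did not overlap. Of the 55 genes, 6 averaged 1 FPKM or more in the flushed fraction only, 9 in the left-over fraction only, 19 in both and 21 in neither.

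The comparison of fractions set the 8 flushed against the 6 left-over libraries, with both genotypes weighted equally in each, so it does not depend on which left-over label is right. Calls required a p under 0.05 after Benjamini-Hochberg adjustment over all genes in edgeR's quasi-likelihood test, and 49 of the 55 passed the filter on low counts. Of these 49, 31 were lower in the flushed fraction, 14 were higher and 4 were not called, against 44.4% lower and 36.6% higher among all 21464 genes tested (81% called in all). For 20 genes every flushed library lay below every left-over library and for 12 above, against 23% and 27.8% of all genes tested (50.7% without overlap in all). The median log2 fold change of the 49 was -1.58, against -0.22 over all genes tested. A gene low in flushed libraries can pass the filter through the left-over ones alone, and 15 of the 49 did not pass it within the flushed fraction. Among the other 34, which passed within each fraction, 14 were higher and 19 lower, against 51.8% higher and 27.6% lower of all 14497 genes that passed in the same way (79.4% called). In bulk RNA, fewer cells of a type and less RNA per cell cannot be told apart. The cell type lists moved with the fractions as well, all 10 endothelial markers being higher and all 10 smooth muscle, 10 fibroblast, 9 macrophage and 10 adipocyte markers lower in flushed libraries, and their part in the values of the Wnt genes was not tested.

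**Figure D2:**
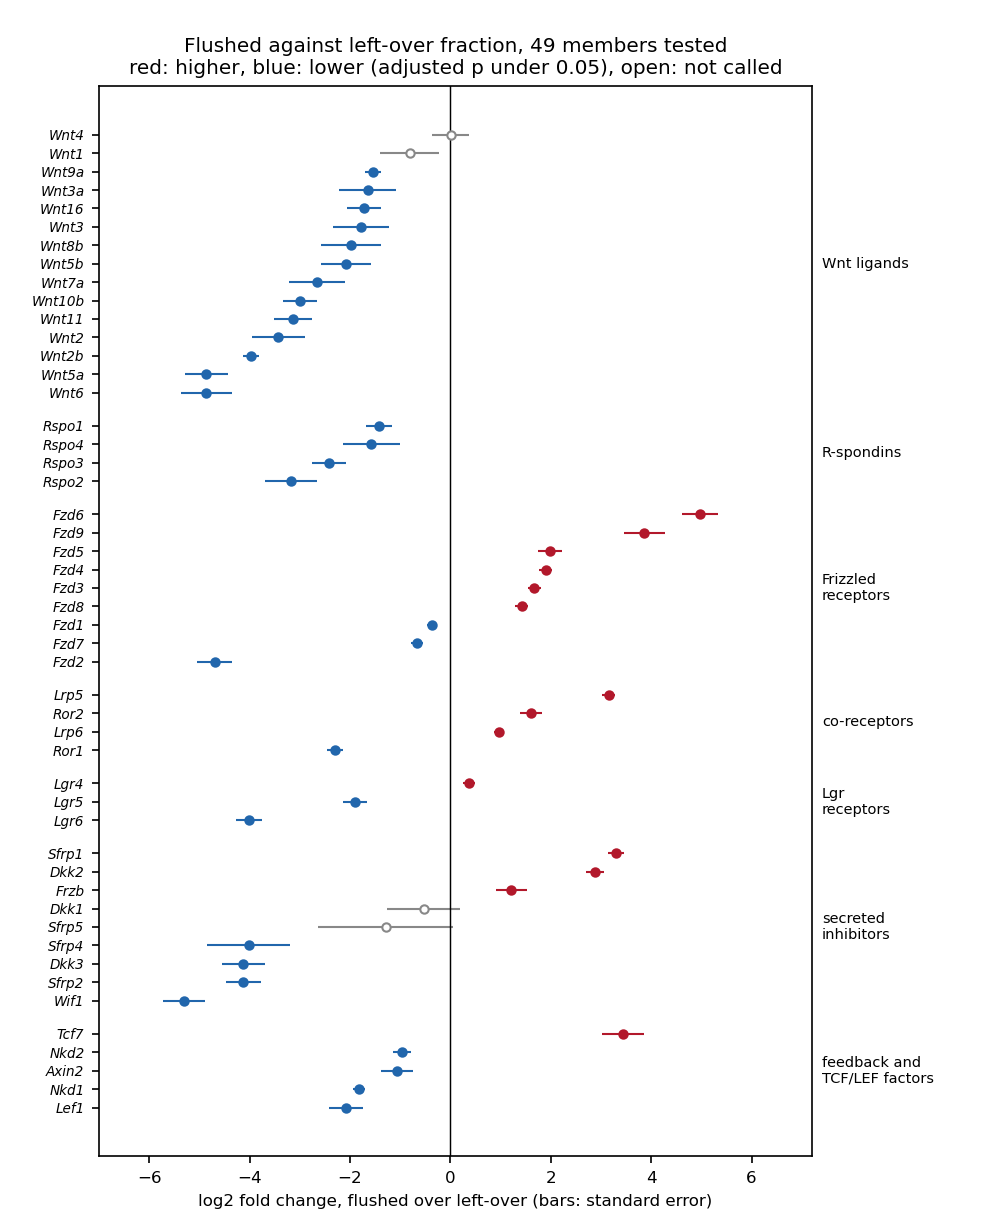
Log2 fold change, flushed over left-over, for the 49 genes tested, grouped by role, with bars for the standard error. No Wnt ligand and no R-spondin is coloured as higher in the flushed fraction, whereas 6 of the 9 Frizzled receptors are.

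Wnt ligands were lower in the flushed fraction. Of the 15 tested, 13 fell below the left-over level at the threshold and none was higher, against 44.4% lower of all genes tested. Of the 7 that also passed the filter within the flushed libraries, 6 were lower, against 27.6% of all genes that passed within each fraction. Wnt5a, a ligand known mostly for signalling without β-catenin, had 1.04, 0.247, 0.167 and 0.206 FPKM in EC knockout and 1.21, 0.564, 1.41 and 0.63 FPKM in EC control libraries. The left-over libraries had 11.4, 11.3, 19.6 and 11.7 FPKM (labelled knockout) and 29.4 and 19.9 FPKM (labelled control). The lowest left-over library was thus well above the highest flushed one, with a log2 fold change of -4.86 (SE 0.42, edgeR adjusted p = 1.14e-06). Wnt2, a ligand of the β-catenin branch, had 4.83, 0.429, 0.405 and 0.566 FPKM in EC knockout, 1.53, 1.53, 2.84 and 1.46 FPKM in EC control, 21.2, 23.2, 24.4 and 23.3 FPKM in left-over labelled knockout, and 17.9 and 10.8 FPKM in left-over labelled control libraries. Its fractions did not overlap either (log2 fold change -3.43, SE 0.52), although EC knockout 1 stood several-fold above its group, and without that library the fold change was -4.32.

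Wnt2b, closely related to Wnt2, was the ligand with the smallest p. It had 0.409, 0.285, 0.256 and 0.233 FPKM in EC knockout, 0.339, 0.353, 0.453 and 0.426 FPKM in EC control, 6.2, 7.59, 7.2 and 4.54 FPKM in left-over labelled knockout and 4.87 and 4.13 FPKM in labelled control libraries. The fractions were far apart, with a log2 fold change of -3.97 (SE 0.16, edgeR adjusted p = 2.86e-12). Wnt11, known from cell movement in development, ranged from 0.428 to 2.66 FPKM (median 0.936) in flushed and from 5.78 to 13.7 FPKM (median 8.85) in left-over libraries. Wnt9a differed least among the ligands without overlap, at 2.69 to 3.18 FPKM (median 2.98) in flushed and 4.82 to 11.7 FPKM (median 7.73) in left-over libraries. By its median share it was the largest ligand of the flushed fraction, with 32.6% of the ligand sum there and 11.1% in left-over libraries. Wnt5b, a close relative of Wnt5a, varied widely among flushed libraries, from 0.514 to 4.85 FPKM, below the 6.51 to 14.4 FPKM of left-over libraries, and lost its call among libraries labelled control (edgeR adjusted p = 0.0643).

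The other called ligands were low throughout. Wnt6 reached at most 0.0735 FPKM in flushed libraries, where 4 of 8 had no count, and 0.457 to 1.07 FPKM in left-over libraries (log2 fold change -4.86, SE 0.51). Wnt10b had 0.0748 to 0.352 FPKM in flushed and 1.07 to 2.98 FPKM in left-over libraries. The log2 fold changes were -2.99 for Wnt10b, -2.66 for Wnt7a, -1.98 for Wnt8b, -1.79 for Wnt3, -1.73 for Wnt16 and -1.65 for Wnt3a, and all but Wnt10b overlapped between the fractions. Wnt3 lost its call without left-over labelled control 2 (-1.41, edgeR adjusted p = 0.075), Wnt3a without labelled control 1 (-1.54, 0.0513), and Wnt8b was too low to be tested without labelled knockout 2. Wnt4 (0.01) and Wnt1 (-0.81) were not called, with edgeR adjusted p = 0.986 and 0.21, but Wnt1 was lower without EC knockout 3 (-1.48, edgeR adjusted p = 0.0187). The ligands Wnt7b, Wnt8a, Wnt9b and Wnt10a were too low to be tested.

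R-spondins, which amplify Wnt signals, were all 4 lower in the flushed fraction, against 44.4% of all genes tested. However, only Rspo1 passed the filter within the flushed libraries. Rspo1 ranged from 0.346 to 1.08 FPKM (median 0.669) in flushed and from 0.945 to 3.22 FPKM (median 1.34) in left-over libraries, which overlapped (log2 fold change -1.43, SE 0.26). Its call was lost with flushed controls set against left-over libraries labelled knockout (edgeR adjusted p = 0.0629) and with these blocked by library number (0.0848). Rspo3 had 0.0696 to 0.458 FPKM in flushed and 0.74 to 1.54 FPKM in left-over libraries without overlap (-2.42). Rspo2 (-3.18) and Rspo4 (-1.58) lay at or under 1.16 FPKM in every library, and without EC control 2 the value of Rspo2 was -3.88. Rspo4 lost its call when left-over labelled control 2 was left out (edgeR adjusted p = 0.104), and was too low to be tested without labelled knockout 2 or 3.

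Frizzled receptors, the Wnt-binding receptors of the cell surface, went both ways. Of 9 tested, 6 were higher in the flushed fraction and 3 lower, and all 9 passed the filter within each fraction. Among all genes that passed in the same way, 51.8% were higher and 27.6% lower, so a split in both directions is not particular to these receptors. Fzd4 had 66.8, 112, 113 and 91.2 FPKM in EC knockout and 101, 117, 109 and 119 FPKM in EC control libraries, with 25.4, 17.3, 24.4 and 21.8 FPKM in left-over labelled knockout and 37.5 and 31.7 FPKM in labelled control libraries. Fzd6 had 55.9, 80.7, 73.7 and 113 FPKM in EC knockout, 99.8, 88.5, 94.8 and 83.5 FPKM in EC control, 2.92, 1.04, 1.49 and 3.97 FPKM in left-over labelled knockout and 2.75 and 3.59 FPKM in labelled control libraries. Both were therefore abundant in flushed RNA, but the difference from the left-over artery was larger for Fzd6 (log2 fold change 4.97, SE 0.37) than for Fzd4 (1.90, SE 0.13). Of the Frizzled sum, Fzd4 took a median 48.2% in flushed and 42.8% in left-over libraries, and Fzd6 took 37.6% and 4.26%.

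The other receptors higher in flushed libraries did not overlap with the left-over ones. Fzd9 ranged from 1.75 to 4.03 FPKM in flushed and from 0.0224 to 0.365 FPKM in left-over libraries (log2 fold change 3.87, SE 0.42, and 4.50 without left-over labelled knockout 4). Fzd8 ranged from 6.47 to 10.4 FPKM in flushed and from 2.37 to 3.53 FPKM in left-over libraries (1.42). Fzd5 (1.99) and Fzd3 (1.67) completed the 6. Fzd2 was the receptor furthest to the left-over side, with 0.0758 to 0.712 FPKM in flushed and 5.92 to 12.7 FPKM in left-over libraries (-4.70, SE 0.34), and its median share of the Frizzled sum was 0.181% in flushed and 16.1% in left-over libraries, below the 42.8% of Fzd4 and the 18.9% of Fzd1 there.

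Fzd1 and Fzd7 differed little between the fractions and overlapped. Fzd1 had 9.32, 7.82, 6.63 and 9.48 FPKM in EC knockout, 9.87, 11.5, 12.6 and 9.81 FPKM in EC control, 11.3, 13, 11.6 and 8.94 FPKM in left-over labelled knockout and 14.6 and 12.5 FPKM in labelled control libraries. Its log2 fold change of -0.37 (SE 0.11) passed the threshold, but with flushed controls set against the left-over libraries labelled knockout it was -0.13 and was not called. Fzd7 changed by -0.67 (SE 0.13). Fzd10 was too low to be tested.

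Co-receptors were mostly higher in flushed libraries. Lrp5 had 6.39, 9.94, 8.22 and 9.03 FPKM in EC knockout and 10.9, 10.3, 10.3 and 9.78 FPKM in EC control libraries, with 0.958, 1.18, 0.74 and 1.03 FPKM in left-over labelled knockout and 1.26 and 0.989 FPKM in labelled control libraries. Lrp6, its close relative, had 8.74, 10.4, 8.9 and 8.91 FPKM in EC knockout, 10.7, 11.3, 11.6 and 9.64 FPKM in EC control, 5.77, 5.41, 4.66 and 3.88 FPKM in left-over labelled knockout and 5.78 and 4.9 FPKM in labelled control libraries. The 2 were at a like level in flushed RNA, whereas in the left-over artery Lrp6 stood several-fold above Lrp5 in each library, with log2 fold changes between fractions of 3.15 (SE 0.13) for Lrp5 and 0.96 (SE 0.10) for Lrp6. The pair of Ror receptors split: Ror2 was higher in flushed libraries (1.32 to 3.73 against 0.666 to 0.835 FPKM, log2 fold change 1.61) and Ror1 lower (0.476 to 1.09 against 3.26 to 4.64 FPKM, -2.30). Neither Ror gene overlapped between the fractions.

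The Lgr receptors for R-spondins were split as well. Lgr6 ranged from 0.144 to 0.742 FPKM in flushed and from 3.99 to 7.78 FPKM in left-over libraries (log2 fold change -4.01, SE 0.26), and Lgr5 from 0.128 to 0.278 FPKM in flushed and from 0.511 to 0.998 FPKM in left-over libraries (-1.91). Lgr4, the main Lgr receptor of flushed RNA, with a median 88.6% of the Lgr sum there and 33% in left-over libraries, differed little between fractions. Its ranges of 2.55 to 5.06 FPKM in flushed and 2.83 to 3.41 FPKM in left-over libraries overlapped, and its call as higher (0.37, SE 0.12) turned to -0.06 when counts were scaled by library size alone.

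Among secreted inhibitors, the fractions were marked by different genes. Sfrp1 (chr8:23411502-23449632, + strand) had 304, 422, 377 and 368 FPKM in EC knockout and 381, 436, 453 and 501 FPKM in EC control libraries, with 36.4, 29, 23.6 and 44.7 FPKM in left-over labelled knockout and 51 and 49.8 FPKM in labelled control libraries. No flushed library came near a left-over one, and the log2 fold change was 3.30 (SE 0.16, edgeR adjusted p = 1.27e-11). Dkk2, which binds Lrp6, was also higher, at 4.66 to 8.49 FPKM in flushed and 0.555 to 1.18 FPKM in left-over libraries (2.87, SE 0.18). Frzb, an Sfrp relative, had 8.28, 16.2, 7 and 21.3 FPKM in EC knockout, 13.1, 9.89, 17.5 and 22.5 FPKM in EC control, 4.76, 5.52, 5.26 and 7.83 FPKM in left-over labelled knockout and 5.3 and 7.85 FPKM in labelled control libraries. It was called higher (1.22, SE 0.31), but EC knockout 3 lay below the 2 highest left-over libraries.

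The inhibitors of the left-over artery were Sfrp4, Sfrp2, Dkk3 and Wif1. Sfrp4 had 168, 3.83, 4.39 and 15.3 FPKM in EC knockout and 22.7, 25.2, 56.8 and 33.5 FPKM in EC control libraries, with 475, 654, 605 and 505 FPKM in left-over labelled knockout and 851 and 702 FPKM in labelled control libraries. The fractions did not overlap (log2 fold change -4.02, SE 0.83), but the flushed values spread widely because EC knockout 1 was far above the rest, and without that library the fold change was -5.35. Sfrp2 had 32.1, 25.6, 11.9 and 6.21 FPKM in EC knockout, 24.8, 24.7, 32.5 and 35.4 FPKM in EC control, 335, 328, 477 and 566 FPKM in left-over labelled knockout and 405 and 388 FPKM in labelled control libraries (-4.12, SE 0.34).

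Dkk3, a secreted member of the Dkk family, had 15.8, 3.25, 3.02 and 6.1 FPKM in EC knockout, 7.33, 4.63, 14.1 and 6.06 FPKM in EC control, 105, 121, 153 and 159 FPKM in left-over labelled knockout and 142 and 114 FPKM in labelled control libraries. Its log2 fold change was -4.12 (SE 0.43), and the highest flushed libraries were EC knockout 1 and EC control 3. Wif1, which binds Wnts directly, passed the filter through the left-over libraries alone, with 0.0484 to 0.773 FPKM in flushed and 5.27 to 10 FPKM in left-over libraries (-5.30, SE 0.42, and -5.90 without EC knockout 1). Among the 34 genes that passed within each fraction the largest difference was that of Fzd6. Sfrp5 (-1.29) and Dkk1 (-0.54) were not called, with edgeR adjusted p = 0.387 and 0.5. Sfrp5 became lower in the flushed fraction without EC control 4 (-3.68, edgeR adjusted p = 0.000479), the library that held 93 counts of it, against 0 to 2 in each of the other 7 flushed libraries. Dkk4 was too low to be tested.

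Of the intracellular genes, Tcf7 was higher in flushed RNA and the other 4 were lower. Lef1 passed the filter through the left-over libraries alone. Tcf7, a TCF factor, ranged from 3.28 to 12.3 FPKM (median 5.66) in flushed and from 0.319 to 0.896 FPKM (median 0.484) in left-over libraries (log2 fold change 3.44, SE 0.41). Lef1, of the same family, went the other way, at 0.0416 to 0.18 FPKM in flushed and 0.279 to 0.719 FPKM in left-over libraries (-2.08, SE 0.34). Nkd1, a feedback inhibitor that binds Dishevelled, had 3.12, 2.42, 2.44 and 2.14 FPKM in EC knockout, 1.95, 1.6, 2.22 and 1.75 FPKM in EC control, 6.17, 6.95, 9.51 and 8.68 FPKM in left-over labelled knockout and 7.26 and 7.91 FPKM in labelled control libraries (-1.82, SE 0.12). Axin2, a widely used read-out of β-catenin activity, was under 1 FPKM everywhere (0.107 to 0.472 in flushed and 0.385 to 0.557 in left-over libraries, overlapping), with a log2 fold change of -1.06 (SE 0.33). Its call was lost among libraries labelled control (edgeR adjusted p = 0.0831), with flushed controls set against left-over libraries labelled knockout (0.0529) and with these blocked by library number (0.131). Nkd2 was also lower (-0.96, SE 0.17), with overlap.

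**Figure D3:**
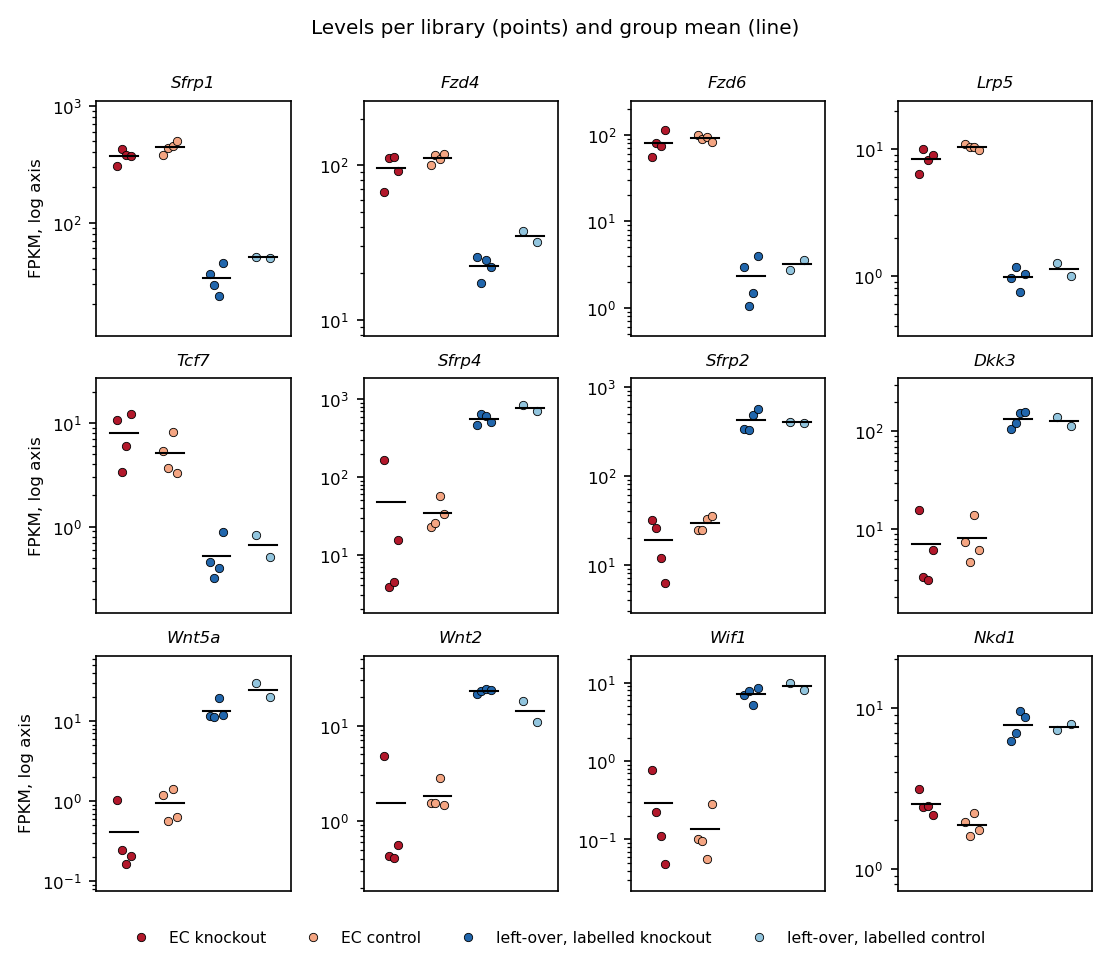
FPKM on a log axis for 12 genes in EC knockout, EC control, left-over labelled knockout and left-over labelled control libraries, from left to right in each panel (points: libraries, lines: group means). In the panels of Sfrp4, Wnt2 and Wif1 the top EC knockout point is library 1, and the fractions stay apart in all 12 panels.

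The rest of the pathway was described with 85 further genes in 6 lists. Of the 80 tested, 55 were higher in the flushed fraction, 18 lower and 7 not called, with a median log2 fold change of 1.05, against 36.6% higher, 44.4% lower and a median of -0.22 over all genes tested. Of the 74 that passed the filter within each fraction, 55 were higher and 13 lower, against 51.8% and 27.6% of all genes that passed in the same way. In the list drawn up for Wnt secretion, 3 of 3 tested were higher. They were Wls, the carrier of Wnts to the cell surface (0.75), Porcn, the enzyme that adds the lipid (0.45), and Lmbr1l (1.82). Of these only Wls and Porcn are secretion genes. In the destruction complex and transducer list, 17 of 20 were higher and 1 lower, including Apc (2.16), Dvl1 (2.02), Csnk1e (1.96) and Frat2 (1.71), with Wtip lower (-1.0). Nuclear co-factors were higher in 14 of 16 and lower in 2, led by Bcl9l (3.11), which joins β-catenin to its co-activators, and by Pygo1 on the lower side (-3.76).

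Of 11 receptor turnover and inhibitor genes, 7 were lower in flushed libraries and 2 higher. Of the 8 that passed the filter within each fraction, 5 were lower and 2 higher. Among all genes that passed in the same way, 27.6% were lower and 51.8% higher. The lower ones included Cpz (-5.92), Sost, a blocker of Lrp5 and Lrp6 (-4.96), Apcdd1 (-4.45) and Igfbp4 (-2.75), and the higher ones were Tpbg (1.78) and the Frizzled-degrading ligase Znrf3 (0.73). Among co-receptors and planar polarity genes, 10 of 19 were higher and 6 lower. Of the 18 that passed the filter within each fraction, 10 were higher and 5 lower, near those shares of all genes. Celsr1 (3.46), Celsr2 (3.14), Tspan12 (1.89) and Ptk7 (1.88) led the higher genes, and Ndp (-3.96), Musk (-3.95), Daam2 (-1.77) and Daam1 (-1.15) the lower ones. Thus Fzd4, Lrp5 and Tspan12 were higher in flushed RNA while the transcript of their ligand norrin was lower there. Of 14 further β-catenin target genes tested, 10 were higher, led by Sox17 (4.61), Bmp4 (4.27), Jag1 (3.05) and Plaur (2.65), and 3 were lower, namely Apcdd1, Tnfrsf19 (-2.09) and Tbx3 (-1.82). Only 12 of the 14 passed the filter within each fraction. Of these 10 were higher and 1 was lower, against the same 51.8% and 27.6% of all genes.

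The EC knockout comparison asked whether loss of Poldip2 from the endothelium went with a change in these genes in flushed RNA. None of the 34 genes tested was called, and none of all 14800 genes tested was called either (0%), by edgeR. Poldip2 itself fell short of the adjusted threshold (log2 fold change -0.89, SE 0.16, edgeR adjusted p = 0.27), although its groups did not overlap (exact two-sided permutation p = 0.0286, the smallest that 70 arrangements allow). In the authors' deposited table Poldip2 passed, with a log2 fold change of -0.70 (adjusted p = 0.000551). At an unadjusted p under 0.05 there were 6 of the 34 genes, against 6.2% of all genes tested, and 28 of the 34 fold changes were negative. The median log2 fold change was -0.21, against 0.005 over all genes tested. Libraries did not overlap for 1 of the 34, against 3.84% of all genes tested. DESeq2 called 65 genes over the whole table and again none of these, and limma-voom called 0.

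That 1 gene was Fzd1, whose 4 EC knockout values all lay below the 4 EC control values given above (log2 fold change -0.41, SE 0.13, edgeR adjusted p = 0.701). Its exact permutation p = 0.0286 follows from the lack of overlap by which it was picked, as for 3.84% of all genes tested, and adds no support. Next by p came Lrp6 (-0.24, SE 0.09, edgeR adjusted p = 0.767) and Nkd1 (0.41, SE 0.15, edgeR adjusted p = 0.767), each with an overlap between groups. The following 5 had fold changes of -0.41 for Dkk2, -0.31 for Lrp5, -0.28 for Sfrp1, -0.36 for Lgr4 and -1.22 for Wnt5a, with edgeR adjusted p between 0.787 and 0.82. Sfrp1 averaged 367 ± 48.6 FPKM in EC knockout and 443 ± 49.7 FPKM in EC control libraries (SD, n = 4 each), a difference larger than either SD, but the values overlapped. The authors' deposited table gave the same genes small changes, with log2 fold changes of -0.34 for Fzd1 (adjusted p = 0.388) and -0.24 for Sfrp1 (adjusted p = 0.722). Of the 55 genes 31 had an adjusted p there and none was called, against 0.378% of all genes with an adjusted p.

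**Figure D4:**
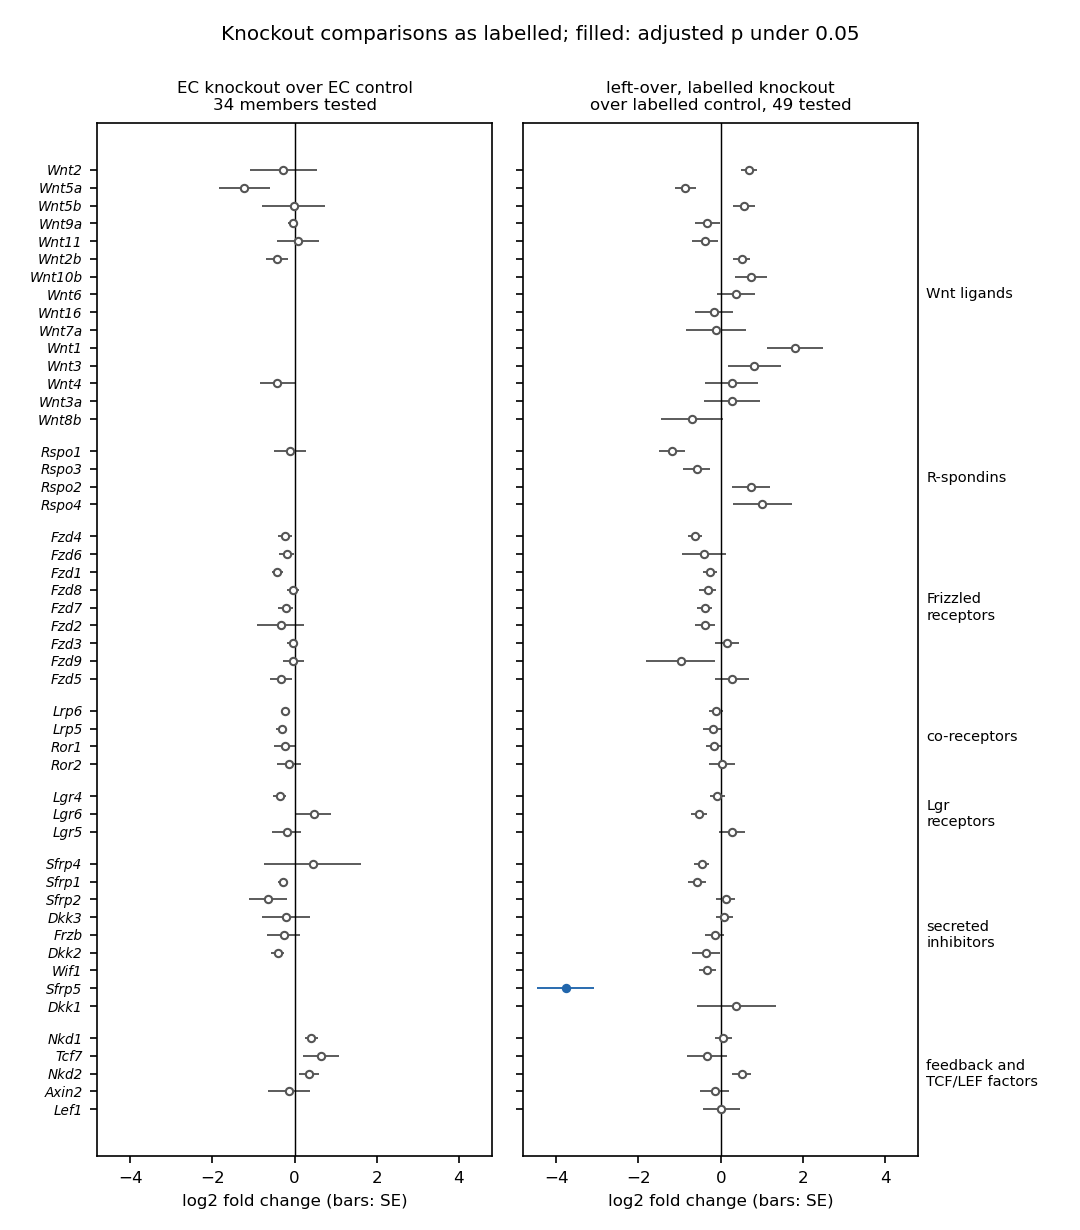
Log2 fold change with standard error of each tested gene in EC knockout over EC control (left panel, 34 genes) and in left-over labelled knockout over labelled control (right panel, 49 genes). The filled point is Sfrp5, the 1 gene past the threshold, and the open points of the left panel are mostly left of 0.

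EC knockout 1 was most often the highest flushed library for genes of the left-over side and the lowest for those of the flushed side. Such ranks were not counted over all genes. Among the 34 genes with enough counts, EC knockout 1 was the highest flushed library for 7 of the 19 that were lower in the flushed fraction and the lowest for 8 of the 14 that were higher. Its marker sums stood apart as well, at 703 FPKM for macrophage and 272 FPKM for adipocyte genes, against 21.9 to 289 and 15.4 to 91.4 FPKM in the other 7 flushed libraries. The fibroblast markers without Ly6a summed to 1090, 187, 197 and 191 FPKM in EC knockout and 549, 460, 948 and 549 FPKM in EC control libraries, so that EC knockout 1 was the highest of all 8 and the other 3 EC knockouts were the lowest. Its endothelial sum of 4380 FPKM lay inside their range of 3840 to 4540 FPKM. Between the groups, the fibroblast list had a median log2 fold change of -0.87 in EC knockout libraries, with 5 of 10 genes at an unadjusted p under 0.05, of which 4 were lower and Ly6a was higher (0.41), the smooth muscle list 0.67 and the adipocyte list 1.34. The part of these markers in the values of Wnt5a, Sfrp2 (-0.65) and Wnt2 (-0.27) was not tested. Without EC knockout 1 and EC control 3, the libraries highest in fibroblast markers, Wnt2 was lower in EC knockout libraries (-1.71, edgeR adjusted p = 0.0305). It was the 1 member called, among 97 of all 15078 genes tested, 94 of them lower. These 2 libraries also held the most Wnt2 of their groups, at 4.83 and 2.84 FPKM. The libraries kept had fibroblast sums of 187 to 197 FPKM (EC knockout) and 460 to 549 FPKM (EC control). The part of this difference in the call was not tested.

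**Figure D5:**
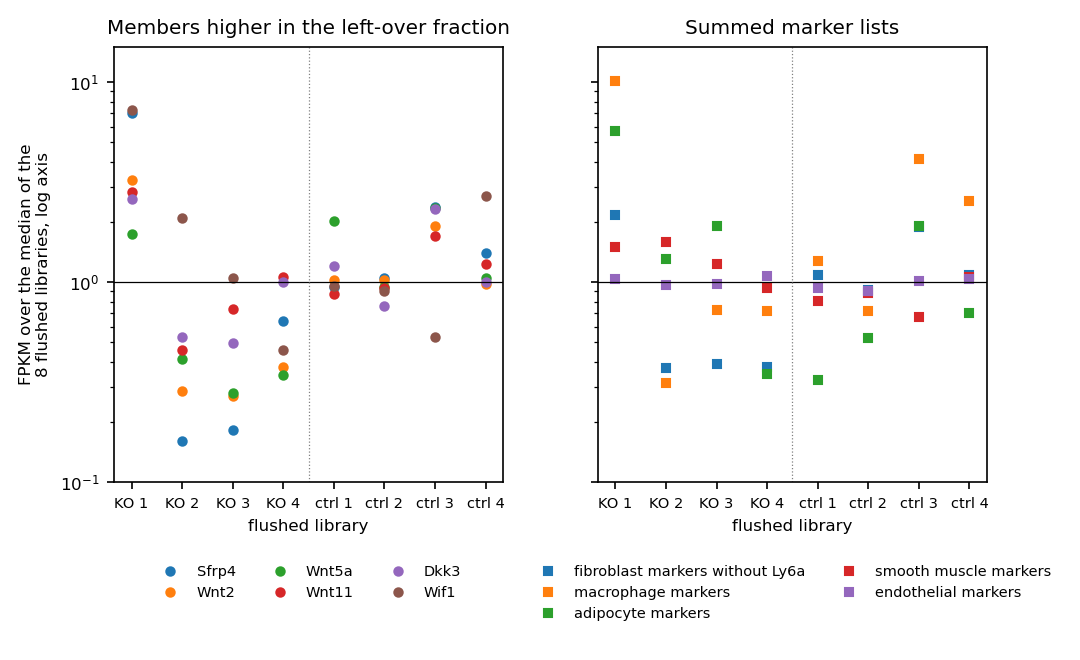
For each of the 8 flushed libraries, FPKM over the median of the 8 on a log axis, for 6 genes higher in the left-over fraction (left panel) and for summed marker lists (right panel, fibroblast markers without Ly6a). EC knockout 1 is high for Sfrp4, Wif1, Wnt2, Wnt11 and Dkk3 and for macrophage, adipocyte and fibroblast markers, while the endothelial markers stay near 1 throughout.

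The left-over comparison set 4 libraries labelled knockout against 2 labelled control. Of the 49 genes tested, 1 was called, the inhibitor Sfrp5, against 0.792% of all 20442 genes tested (0.372% lower). Sfrp5 had 0.0544, 0.138, 0.0812 and 0 FPKM in libraries labelled knockout, which are 2, 5, 3 and 0 counts, and 0.632 and 1.27 FPKM in those labelled control, which are 26 and 52 counts. The groups did not overlap and the log2 fold change was -3.77 (SE 0.70, edgeR adjusted p = 0.0251). The call was lost without left-over labelled control 2 (edgeR adjusted p = 0.319) or labelled knockout 1 (0.0675), and in the fit on all 14 libraries (0.349), and DESeq2 gave no adjusted p. Adipocyte markers summed to 1470, 763, 1530 and 399 FPKM in libraries labelled knockout and 3260 and 1320 FPKM in those labelled control, which overlapped, with 9 of the 10 lower in libraries labelled knockout by sign. The Schwann cell and nerve list summed to 483 to 590 FPKM in libraries labelled knockout and 425 to 480 FPKM in those labelled control. Most of this was Pmp22, at 468 to 574 FPKM and 404 to 461 FPKM. Of the 7 genes of the list that were tested, 6 were lower in libraries labelled knockout by sign (median log2 fold change -0.35). Mbp of this list, a myelin protein picked after its values were seen, had 2.06, 1.98, 3.9 and 2.18 FPKM in libraries labelled knockout and 4.27 and 5.78 FPKM in those labelled control (log2 fold change -0.97, edgeR adjusted p = 0.156). In flushed RNA Mbp was highest in EC control 4 (4.04 FPKM), the library with most Sfrp5. The part of these markers in the value of Sfrp5 was not tested.

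The other genes of the left-over comparison did not pass. At an unadjusted p under 0.05 there were 13 of the 49, against 10.4% of all genes tested, and 12 of the 49 did not overlap between groups, against 21.3%. Rspo1 had 1.32, 0.945, 1.35 and 1.23 FPKM in libraries labelled knockout and 3.22 and 2.33 FPKM in those labelled control (log2 fold change -1.18, SE 0.32, edgeR adjusted p = 0.115). Fzd4 changed by -0.62 (SE 0.18, edgeR adjusted p = 0.15), and Sfrp1 by -0.58 (0.329), which passed without labelled knockout 4 (-0.77, edgeR adjusted p = 0.0298). The endothelial marker list had a median of -0.84 in the same comparison, with sums of 135, 74.9, 64.7 and 220 FPKM in libraries labelled knockout and 179 and 284 FPKM in those labelled control, and its part in the values of Fzd4 and Sfrp1 was not tested.

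Wnt2, Wnt5a, Lgr6 and Wnt1 were the others among the smallest p. Wnt2 changed by 0.70 (edgeR adjusted p = 0.153) and Wnt5a by -0.86 (0.197), each without overlap in the values given above. Wnt5a passed without labelled knockout 3 (-1.11, edgeR adjusted p = 0.0165). Lgr6 changed by -0.53 (edgeR adjusted p = 0.294) and Wnt1 by 1.82 (0.32), Wnt1 on 0.168 to 0.454 FPKM in libraries labelled knockout and 0.0783 to 0.0971 FPKM in those labelled control. Exact permutation tests cannot go below p = 0.0667 with 4 against 2 libraries. The authors' deposited table runs the other way, as smooth muscle knockout over control by its own grouping, and called 2 of 36 genes, Wnt5a (log2 fold change 0.67, adjusted p = 0.0301) and Lgr6 (0.66, adjusted p = 0.0122), both higher, against 3.68% of its genes.

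The difference between both knockout effects was tested in 1 model over all 14 libraries, EC effect minus left-over labelled effect. None of the 49 genes was called, against 0.256% of all genes tested, and 2 had an unadjusted p under 0.05, against 12.8%. DESeq2 also called none. Wnt2b had the smallest p, with a difference of -0.91 (SE 0.33, edgeR adjusted p = 0.257), which is -0.42 in flushed and 0.51 in left-over libraries by their own fits. Rspo4 (-2.58, edgeR adjusted p = 0.356) and Rspo1 (1.09, 0.399) followed. Exchanging the left-over labels gives another value and not just another sign. With them exchanged, none of the 49 was called either, against 0.014% of all genes tested. At an unadjusted p under 0.05 there were 10 of the 49, against 1700 of all 21464 genes tested. Wnt2b then had 0.10, Rspo4 -0.58 and Rspo1 -1.30, and Fzd4 had the smallest p (-0.86, edgeR adjusted p = 0.274). Without EC knockout 1, Wnt2 passed the threshold (-2.67, edgeR adjusted p = 0.00474), as 1 of 131 called among all 21423 genes tested. EC knockout 1 had 4.83 FPKM of Wnt2, against 0.405 to 0.566 FPKM in the rest of its group. It was also the flushed library highest in fibroblast markers, and their part in this call was not tested. Of the 85 other pathway genes, none was called in the EC, left-over or difference comparison by edgeR. At an unadjusted p under 0.05 there were 3 of 74, 11 of 80 and 6 of 80, against 6.2%, 10.4% and 12.8% of all genes tested.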

How the data were processed

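RNA sequencing counts per gene were analysed for 14 mouse carotid libraries in 4 groups taken from the labels. The deposited table gave raw counts, FPKM values that the authors computed from them (equal to count over gene length and library total, tolerance 0.001, in 100% of nonzero values), group means in FPKM, and log2 fold changes with p-values and adjusted p-values. Other values in the deposited table were gene length and coordinates. The submitters' processing notes list STAR 2.5 and TopHat beside STAR-Fusion, edgeR 3.16.5, HTSeq 0.6.1 and DESeq2, in no stated role or order, and the build mm9, whereas all 55 genes had the chromosome and strand of GENCODE M21 (GRCm38) and 54 had starts within 5000 bases. Whether counting used strand is not stated.

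Counts were filtered by filterByExpr (minimum count 10, minimum total 15), scaled by TMM and tested two-sided with edgeR 4.0.16 (glmQLFit robust and glmQLFTest, limma 3.58.1, R 4.3.3), with Benjamini-Hochberg adjustment over all genes and calls under 0.05. Standard errors are the fold change over the root of F. Levels are FPKM from the counts, the table's gene length and TMM factors over all libraries, with no pseudocount. Exact permutation tests were two-sided on log2(FPKM + 0.1). Cell type and pathway lists, the 55 genes and the tests were chosen with earlier results of these data known. Every tested gene is given for the fractions. In the knockout comparisons, called genes or the 8 smallest p are named, and in the difference the 3 smallest. Values in every library are given for the 12 highest means and, in the knockout comparisons, for called genes and the 3 smallest p. The plan counted 56 genes, but the table holds 55. No pair of libraries looked like a duplicate (smallest chi-square per degree of freedom 7.67). On simulated counts the test was checked before use. A count of 0 allows up to 3 counts, as counting error only. Alternatives were DESeq2 1.42.0, limma-voom, other scalings and filters, blocks, subsets and each library left out.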

Additional observations from a re-analysis of the deposited data

Results flagged for a closer look

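In groups of 4 libraries, 7 of 117 sets of values (5.98%) had 1 library far from the other 3, by the critical value of Dixon's ratio. Chance flags about 1 in 20 groups. In FPKM, EC knockout 1 was high for Sfrp4 at 168 (others 3.83 to 15.3), for Wnt2 at 4.83 (0.405 to 0.566) and for Wnt5a at 1.04 (0.167 to 0.247). EC knockout 2 was high for Lrp6 at 10.4 (8.74 to 8.91). EC control 3 was high for Wnt2 at 2.84 (1.46 to 1.53). In the left-over libraries labelled knockout, library 3 was high for Wnt5a at 19.6 (11.3 to 11.7) and library 2 for Wnt8b at 0.249 (0.0459 to 0.0609). The cell type markers of EC knockout 1 and EC control 3 are given with the flushed comparison, and their part in these values was not tested.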

How the results depend on the processing

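In the fraction comparison no gene of the family was called in opposite directions under any of the 25 alternatives run, and 13 or 14 of the 14 higher calls remained in each, as did 22 to 31 of the 31 lower calls. Directions turned for Lgr4 with library size alone (-0.06), for Dkk1 among libraries left out (-1.13 to 0.11), and for the uncalled Wnt4 with DESeq2 (-0.13), library size alone (-0.43), DESeq2 size factors (-0.12), flushed control against left-over labelled knockout (-0.012) and libraries left out (-0.24 to 0.35). Library size alone moved the median of all genes from -0.22 to -0.65, with 5488 genes higher and 11923 lower. Libraries labelled control alone kept 25 lower calls and lost Axin2 and Wnt5b, while Rspo4, Wnt3, Wnt3a and Wnt8b were too low to be tested. Flushed control against left-over labelled knockout kept 23 and lost Axin2, Fzd1 and Rspo1, while Rspo4, Wnt3, Wnt3a, Wnt7a and Wnt8b were too low to be tested. DESeq2 gave Sfrp4 and Wnt2 no adjusted p.

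In the EC knockout comparison, 1 gene of the family was lower without both fibroblast-high libraries. All genes called were 0 with edgeR, 65 with DESeq2, 14 without a filter, 97 without both fibroblast-high libraries, 4 in the 14-library fit and 0 to 20 with libraries left out. In the left-over comparison, family genes called lower were 1 with edgeR, 2 with DESeq2 (Rspo1 and Wnt5a), 2 without a filter, 0 in the 14-library fit and 0 to 2 with libraries left out. All genes called were 162, and 427 with DESeq2, 397 without a filter and 41 to 260 with libraries left out. In the difference, family genes called lower were 0 to 1 and all genes called 7 to 131 with libraries left out, and 426 with DESeq2. With the left-over labels exchanged, chosen after seeing the data, all genes called were 3, and Wnt2b (0.098) and Rspo1 (-1.303) turned. The cause of these changes was not tested.

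No pairing by repeat number was evident, but so few pairs cannot exclude it. Correlations were -0.19 to 0.16 for the 4 flushed pairs and -0.03 and 0.34 for the 2 left-over pairs. They were 0 to 0.421 for the 4 pairs of flushed control with left-over labelled knockout. Of 8 flushed libraries, 2 correlated best with their own number. With the replicate block, 8 family genes and 2015 of all genes were called in the left-over comparison, and 19 genes in the difference. Repeats 3 and 4 have no left-over library labelled control. In the left-over comparison the blocked effect thus rests on repeats 1 and 2 alone, which leaves little to measure spread by. Library numbers shared by flushed controls and left-over libraries labelled knockout gave -0.19 to 0.20. Blocking by them kept 22 lower calls and lost Axin2, Fzd1, Rspo1 and Wnt16, while Rspo4, Wnt3, Wnt3a, Wnt7a and Wnt8b were too low to be tested. With 2 left-over control libraries, low genes are limited in precision.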
